A study of Mus musculus with 8 samples.

Results

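The RUNX proteins, their binding partner CBFβ and the repressors GFI1 and GFI1B form the core of the gene circuit that turns haemogenic endothelium into blood. The family was taken as the 6 rows of the deposited count table whose gene symbol is Runx1, Runx2, Runx3, Cbfb, Gfi1 or Gfi1b, out of 41128 genes. The counts come from RNA sequencing of 8 libraries, 2 per group, of haemogenic endothelium differentiated from mouse embryonic stem cells of strain C57BL/6. The Hdac2 lox/lox line carries loxP-flanked copies of Hdac2 and the Hdac1 lox/lox line loxP-flanked copies of Hdac1, the genes for 2 related histone deacetylases. The groups were Hdac2 lox/lox cells given 4-hydroxytamoxifen (4OHT), Hdac2 lox/lox cells given ethanol (EtOH), Hdac1 lox/lox cells given 4OHT and Hdac1 lox/lox cells given EtOH. 4OHT is commonly used to switch on a tamoxifen-dependent Cre recombinase, and ethanol is its solvent. The sources used here do not give the driver of the recombinase, the number of clones behind each line, the stage and time of the treatment or any sort of the cells.

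In the embryo, blood arises from a flat, specialised endothelium whose cells lose endothelial character and round up into blood progenitors. RUNX1 is the DNA-binding factor needed for this step in the mouse. CBFβ does not bind DNA itself and raises the affinity of each RUNX protein for it. GFI1 and GFI1B, which RUNX1 activates in the mouse, are zinc finger repressors that shut down endothelial genes by recruiting LSD1, CoREST proteins and the histone deacetylases HDAC1 and HDAC2. RUNX2 is best known as the regulator of bone formation and RUNX3 for roles in T cells and neurons.

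Library totals ran between 10215792 and 19552380 counts, and levels are given as CPM, counts scaled to a common library size with TMM normalization. All 7 haemogenic endothelium markers (Cdh5, Pecam1, Kdr, Tek, Kit, Eng and Cd34) had counts in every library, and their summed level lay between 3380 and 8488 CPM. The counts could not check the labels. Hdac2 lay between 149 and 165 CPM over the Hdac2 line and between 140 and 152 CPM over the Hdac1 line, and its log2 fold change between 4OHT and EtOH in the Hdac2 line was -0.08 ± 0.14 (SE, adjusted p = 0.672, edgeR quasi-likelihood test). Hdac1 had 4.00 to 7.45 CPM in the Hdac2 line and 5.60 to 7.12 CPM in the Hdac1 line. Gm10093, a near-identical copy, had 109 to 156 CPM over all libraries. Reads of Hdac1 may have been counted there, which was not tested. The Y-linked gene Ddx3y had 0.466 and 0.889 CPM in the Hdac2 4OHT libraries and 0.324 and 4.58 CPM in the Hdac2 EtOH libraries, so Hdac2 EtOH replicate 2 stood apart from the other libraries of that line. Ddx3y lay between 25.8 and 45.7 CPM in the Hdac1 line. The lines therefore also differ in Y-linked expression, and a difference between lines cannot be told apart from what else differs between the clones.

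The 3 Runx genes share a stretch of sequence at their 5′-most RefSeq start sites that holds the binding motif of the proteins they encode. It is shown because these genes, alike at this point, differed widely in level. A run of 18 bases, in capitals, was identical in the 3 genes and holds 2 copies of the RUNX core motif ACCACA. Counted from the RefSeq start site at 0, the run begins at base 26 in Runx1 (chr16:92826025-92826054, minus strand), at base 21 in Runx2 (chr17:44814583-44814612, minus strand) and at base -136 in Runx3 (chr4:135120503-135120532, plus strand), in GRCm38.p6.
Runx1: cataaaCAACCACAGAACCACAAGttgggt
Runx2: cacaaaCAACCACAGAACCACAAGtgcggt
Runx3: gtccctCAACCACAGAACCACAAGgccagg
Of 32851 RefSeq promoter windows of 300 bases, 4 held this run on either strand, those of the 3 Runx genes and of Gm16225, whose window overlaps the Runx3 window on the other strand. ACCACA, or TGTGGT on the opposite strand, was present in 16.8% of these windows. A match of letters is a description and not a measured site of binding.

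Runx1 was the main Runx gene in every library. Per kilobase of exon, on the CPM scale, it made up 95.2% and 97.4% of the summed Runx level in the Hdac2 4OHT libraries and 98.8% and 98.7% in the Hdac2 EtOH libraries. Its share in the Hdac1 line lay between 99.0% and 99.8%. The mean Runx1 level per kilobase was 6.08 ± 0.86 CPM in Hdac2 4OHT cells and 7.74 ± 0.96 CPM in Hdac2 EtOH cells, and 10.7 ± 1.95 CPM in Hdac1 4OHT cells and 18.3 ± 4.2 CPM in Hdac1 EtOH cells (SD, n = 2 each). Cbfb was the most abundant member by the same measure, with 64.1 ± 3.40 CPM per kilobase in Hdac2 4OHT cells, 55.0 ± 0.75 in Hdac2 EtOH cells, 75.4 ± 10.6 in Hdac1 4OHT cells and 74.7 ± 14.2 in Hdac1 EtOH cells. Gfi1 and Gfi1b lay below Cbfb and above Runx2 and Runx3 in every group. Gfi1b averaged 24.0 ± 1.94 CPM per kilobase in Hdac2 EtOH cells (SD, n = 2), above Runx1 there, and 3.70 ± 0.22 in Hdac2 4OHT cells, below Runx1.

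**Figure D1:**
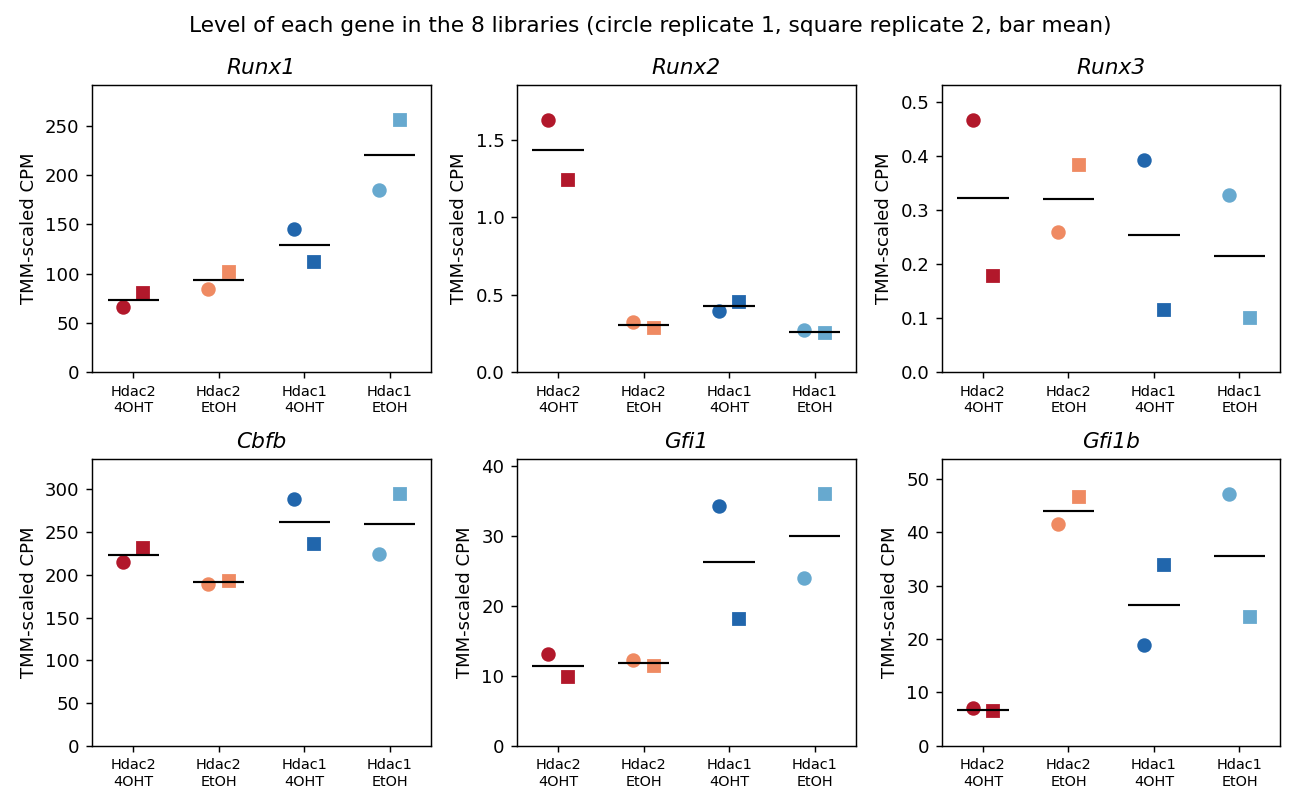
TMM-scaled CPM (vertical axis, from 0) of the 6 genes in the Hdac2 4OHT, Hdac2 EtOH, Hdac1 4OHT and Hdac1 EtOH groups, with a point per library and a bar at the mean of 2. Gfi1b is at 7.06 and 6.49 CPM in the Hdac2 4OHT libraries and at 41.5 and 46.5 CPM in the Hdac2 EtOH libraries, while Gfi1 is low in all 4 libraries of the Hdac2 line.

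Gfi1b fell in the Hdac2 line under 4OHT, while its paralogue Gfi1 did not pass the test there. GFI1B is best known for its part in erythroid and megakaryocyte development, and GFI1 for its part in stem cells and granulocytes. Gfi1b (chr2:28609450-28621982, minus strand) had 7.06 and 6.49 CPM in the Hdac2 4OHT libraries, against 41.5 and 46.5 CPM in the Hdac2 EtOH libraries. The groups did not overlap, and both 4OHT libraries were below each of the other 6. The log2 fold change was -2.70 ± 0.39 (SE, 95% interval -3.61 to -1.78), a 6.48-fold lower level (adjusted p = 0.00868 over the 14179 genes tested, edgeR quasi-likelihood test). In bulk RNA, fewer Gfi1b-expressing cells and less Gfi1b RNA per cell cannot be told apart.

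Leaving out libraries of the Hdac2 line ended the call for Gfi1b in 3 of 4 cases, with little change in its size. With 4OHT replicate 1 left out the adjusted p was 0.0467, and with 4OHT replicate 2 left out it was 0.0676. Dropping EtOH replicate 1 gave 0.0544 and dropping EtOH replicate 2 gave 0.0752. The log2 fold changes lay between -2.78 and -2.61. In these fits the lone library is assumed to vary like the other groups, among them the Hdac1 groups, which varied more.

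Gfi1 (chr5:107716657-107726036, minus strand) had 13.1 and 9.77 CPM in the Hdac2 4OHT libraries and 12.3 and 11.4 CPM in the Hdac2 EtOH libraries, so that the groups overlapped. The log2 fold change was -0.04 ± 0.35 (SE, 95% interval -0.85 to 0.76, adjusted p = 0.928, edgeR quasi-likelihood test). A lower level as large as that of Gfi1b lies outside this interval. The balance of the paralogues differed accordingly. The ratio of Gfi1b to Gfi1 per kilobase was 0.938 and 1.16 in the Hdac2 4OHT libraries, against 5.90 and 7.13 in the Hdac2 EtOH libraries. Gfi1 shares 101 exon bases with A430072P03Rik on the opposite strand, which had 130 counts over all libraries, or 5.2% of those of Gfi1.

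The 250 bases before the 5′-most RefSeq start sites of Gfi1b and Gfi1 are given because the paralogues parted in the Hdac2 line. Capitals mark GATAA, the core motif of GATA factors, and AATC, the core of the motif that GFI1 and GFI1B bind, each on either strand (TTATC and GATT on the other), in GRCm38.p6. The windows are chr2:28621983-28622232 (Gfi1b, minus strand) and chr5:107725806-107726055 (Gfi1, minus strand). Most of the Gfi1 window lies within the annotated gene, whose 5′ end is at 107726036, while the Gfi1b window lies outside its gene, whose 5′ end is at 28621982. The match counts of the 2 windows are therefore not for like stretches.
Gfi1b: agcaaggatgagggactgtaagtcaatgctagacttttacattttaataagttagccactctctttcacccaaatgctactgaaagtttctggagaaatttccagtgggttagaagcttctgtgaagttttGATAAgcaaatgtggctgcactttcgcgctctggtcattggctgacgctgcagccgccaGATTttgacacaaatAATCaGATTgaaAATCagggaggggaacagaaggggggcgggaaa
Gfi1: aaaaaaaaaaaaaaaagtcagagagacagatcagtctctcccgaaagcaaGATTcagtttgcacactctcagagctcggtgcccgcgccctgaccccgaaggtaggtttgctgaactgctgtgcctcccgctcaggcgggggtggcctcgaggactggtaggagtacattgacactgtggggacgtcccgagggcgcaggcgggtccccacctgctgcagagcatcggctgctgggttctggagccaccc
The Gfi1b window holds 1 GATAA and 4 AATC matches, and the Gfi1 window 0 GATAA and 1 AATC match. Of 32851 promoter windows of this length, 22.6% held GATAA, 69% held AATC and 7.04% held AATC at least 4 times. Neither window holds ACCACA, which 14% of windows of this length do. Gfi1 has a further RefSeq start site, whose window (chr5:107724344-107724593) is not printed and holds 0 matches to GATAA, AATC or ACCACA.

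Red cell markers were also lower in the Hdac2 4OHT libraries. The 8 erythroid markers, among them the embryonic globins Hbb-bh1, Hba-x and Hbb-y and the genes Klf1, Epor, Alas2 and Gata1, summed to 367 and 226 CPM in the Hdac2 4OHT libraries, against 1707 and 1653 CPM in the Hdac2 EtOH libraries. Of these 8, 6 fell and 0 rose, where 17.2% of all tested genes fell and 18.9% rose. None was at 0 in any library. The sum in the Hdac1 line was 166 and 438 CPM under 4OHT and 938 and 293 CPM under EtOH, and in both Hdac1 groups the library with more erythroid RNA also had more Gfi1b. The same held for Hdac2 4OHT, while the Hdac2 EtOH libraries had the opposite order. The part of erythroid RNA in the Gfi1b result was not tested. The 8 megakaryocyte markers summed to 649 and 700 CPM in the Hdac2 4OHT libraries and to 873 and 878 CPM in the Hdac2 EtOH libraries. Of these, 1 rose and 2 fell, beside the same shares of all tested genes.

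**Figure D2:**
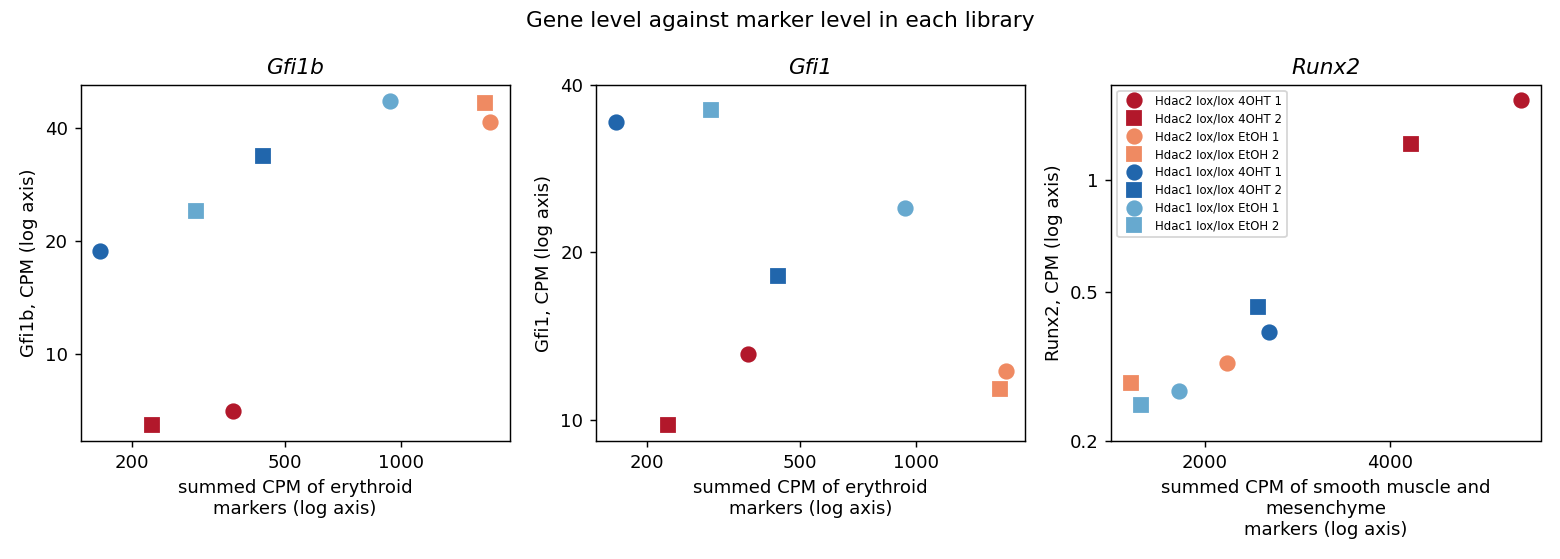
Level of Gfi1b, Gfi1 and Runx2 (vertical axes, CPM, log) against the summed CPM of marker genes (horizontal axes, log) in each of the 8 libraries, with erythroid markers for Gfi1b and Gfi1 and smooth muscle and mesenchyme markers for Runx2. The Hdac2 4OHT libraries hold the least Gfi1b (7.06 and 6.49 CPM), the most Runx2 and the most mesenchyme RNA. The part of erythroid RNA in the Gfi1b level was not tested.

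In the Hdac1 line neither Gfi gene passed the test, and the groups overlapped for both. Gfi1b had 18.8 and 33.8 CPM in the Hdac1 4OHT libraries and 47.1 and 24.1 CPM in the Hdac1 EtOH libraries (log2 fold change -0.43 ± 0.36 SE, 95% interval -1.26 to 0.40, adjusted p = 0.866, edgeR quasi-likelihood test). Gfi1 had 34.3 and 18.1 CPM under 4OHT and 24.0 and 36.0 CPM under EtOH (log2 fold change -0.20 ± 0.33 SE, adjusted p = 0.948). In each group the replicate with more Gfi1 had less Gfi1b. The ratio of Gfi1b to Gfi1 per kilobase was accordingly 0.956 and 3.25 under 4OHT and 3.42 and 1.16 under EtOH. The sign of the Gfi1b estimate turned without Hdac1 EtOH replicate 1 (0.13), and that of Gfi1 turned without Hdac1 4OHT replicate 2 (0.19) or EtOH replicate 2 (0.11).

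The 4OHT effect on Gfi1b was set against itself between the lines. The difference of log2 fold changes, Hdac2 line minus Hdac1 line, was -2.26 ± 0.52 (SE, 95% interval -3.48 to -1.05) with an adjusted p of 0.0804 by the edgeR quasi-likelihood test, which misses the threshold of 0.05. Over the settings that keep all libraries the adjusted p lay between 0.00188 with DESeq2 and 0.144 with a replicate block, and with 1 library left out between 0.0102 and 0.3. Without Hdac1 EtOH replicate 1 it was 0.0102, at a difference of -2.83. Among the 14179 genes, 4 or 0.0282% were called in this test (0.0141% higher and 0.0141% lower), and 0 of the 5 members tested. The differences for the other 4 were 0.43 ± 0.32 for Runx1, 1.51 ± 0.74 for Runx2, 0.21 ± 0.26 for Cbfb and 0.16 ± 0.48 for Gfi1 (SE), with adjusted p between 0.215 and 0.847.

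Runx1 was lower under 4OHT in both lines without passing the test in either. Runx1 (chr16:92601466-92826149, minus strand) had 65.8 and 80.4 CPM in the Hdac2 4OHT libraries and 84.9 and 101 CPM in the Hdac2 EtOH libraries, which gave -0.35 ± 0.23 on the log2 scale (SE, adjusted p = 0.247, edgeR quasi-likelihood test). It had 146 and 112 CPM in the Hdac1 4OHT libraries and 185 and 256 CPM in the Hdac1 EtOH libraries. The groups did not overlap in either line. The log2 fold change in the Hdac1 line was -0.77 ± 0.23 (SE, 95% interval -1.30 to -0.25), with an unadjusted p of 0.00932 and an adjusted p of 0.712. Adjusted p lay between 0.268 and 1.00 over the other settings tried and between 0.281 and 0.951 with 1 library left out.

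None (0) of the 5 tested members was called in the Hdac1 line, and 0 of all 14179 genes (0%), with 947 genes at an unadjusted p under 0.05. DESeq2 called 21 genes higher and 11 lower, none of them a member. In the Hdac2 line 2 of the 5 tested members were called, Runx2 higher and Gfi1b lower, where 36.1% of all tested genes were called, 18.9% higher and 17.2% lower. The share of members called is thus close to that of all genes, and Runx2 entered the test only through the group in which it was high. The median log2 fold change of all genes was -0.02 in either line, and the median size without its sign was 0.61 in the Hdac2 line and 0.20 in the Hdac1 line.

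**Figure D3:**
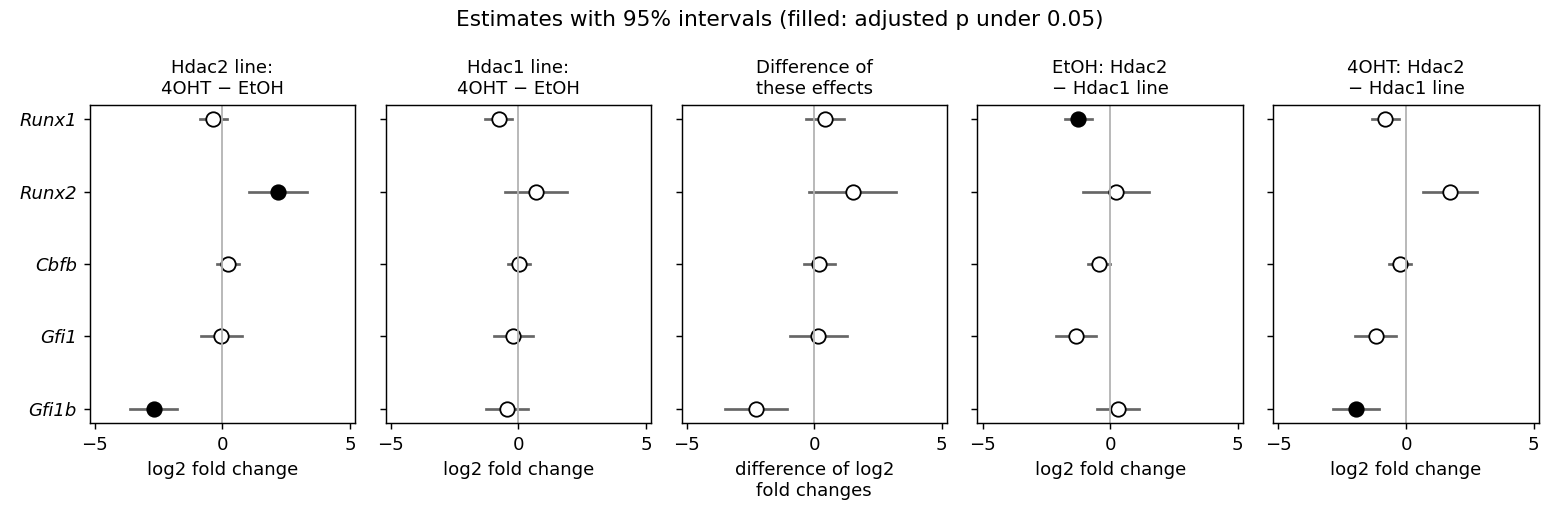
Log2 fold changes of the 5 tested members (points) with 95% intervals (lines) in the 5 comparisons, filled where the adjusted p is under 0.05; the middle panel shows the Hdac2 effect minus the Hdac1 effect. Runx2 (2.2) and Gfi1b (-2.70) are filled for 4OHT against EtOH in the Hdac2 line, and none of the 5 members is filled in the Hdac1 line.

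Cbfb did not pass the test in either line. Cbfb (chr8:105170674-105217989, plus strand) had 215 and 231 CPM in the Hdac2 4OHT libraries and 190 and 193 CPM in the Hdac2 EtOH libraries, and its log2 ratio was 0.22 ± 0.18 (SE, 95% interval -0.21 to 0.65, adjusted p = 0.364, edgeR quasi-likelihood test). It had 289 and 236 CPM in the Hdac1 4OHT libraries and 225 and 295 CPM in the Hdac1 EtOH libraries, and its log2 ratio was 0.01 ± 0.18 (SE, 95% interval -0.41 to 0.44, adjusted p = 0.995). That estimate was -0.04 with scaling by library size only. The measured ratio of Cbfb to Runx1 was higher in the 4OHT libraries than in the EtOH libraries of each line. Per kilobase, the ratio of Cbfb to Runx1 was 11.3 and 9.94 in the Hdac2 4OHT libraries against 7.72 and 6.60 in the Hdac2 EtOH libraries, and 6.85 and 7.27 in the Hdac1 4OHT libraries against 4.21 and 3.98 in the Hdac1 EtOH libraries. The groups did not overlap in either line. These ratios were not tested, and neither gene was called in either line. With so few libraries per group, groups can fail to overlap by sampling alone.

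Runx2 rose in the Hdac2 line under 4OHT, on few counts. Runx2 (chr17:44495987-44814797, minus strand) had 21 and 14 counts in the Hdac2 4OHT libraries, or 1.63 and 1.24 CPM. It had 5 and 3 counts in the Hdac2 EtOH libraries, or 0.324 and 0.287 CPM. The log2 fold change was 2.2 ± 0.49 (SE, 95% interval 1.06 to 3.33, adjusted p = 0.0165, edgeR quasi-likelihood test). From the summed counts alone, 35 against 8, the depth-scaled ratio was 4.69 with an exact Poisson 95% interval of 2.14 to 11.7, which covers counting error only. The gene passed the filter on low counts only through the Hdac2 4OHT group, the group in which it was high. Leaving out any 1 library of the Hdac2 line ended the call. The adjusted p then lay between 0.0827 (4OHT replicate 2 left out) and 0.092 (4OHT replicate 1 left out), with 0.0851 and 0.0876 for EtOH replicates 1 and 2, at log2 fold changes between 1.99 and 2.38.

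In the Hdac1 line Runx2 had 5 and 8 counts under 4OHT and 5 and 5 counts under EtOH, or 0.393 and 0.456 CPM against 0.273 and 0.250 CPM. The log2 fold change was 0.69 ± 0.52 (SE, adjusted p = 0.855, edgeR quasi-likelihood test). Runx2 lies across the gene Supt3 on the opposite strand, which had 1501 counts over all libraries against 66 for Runx2, so that reads of either may be uncertain if strand was not used in counting. Their annotated exons share 0 bases. Supt3 fell in the Hdac2 line (log2 fold change -1.15 ± 0.32 SE, adjusted p = 0.028), the direction opposite to that of Runx2.

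Smooth muscle and mesenchyme RNA was also highest in the Hdac2 4OHT libraries. The 8 markers (Acta2, Tagln, Cnn1, Myh11, Pdgfra, Pdgfrb, Col1a1 and Col3a1) summed to 6529 and 4320 CPM in the Hdac2 4OHT libraries, against 2176 and 1519 CPM in the Hdac2 EtOH libraries. Of these 8, 5 rose and 0 fell, where 18.9% of all tested genes rose and 17.2% fell. None was at 0. The sum in the Hdac1 line was 2549 and 2442 CPM under 4OHT and 1820 and 1575 CPM under EtOH. The Hdac2 4OHT libraries were highest in the marker sum as they were in Runx2, and the Hdac1 4OHT libraries came next in both. The part of mesenchyme RNA in the Runx2 result was not tested.

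Runx3 was near the limit of detection in all libraries. Runx3 (chr4:135120652-135177990, plus strand) had 2 to 6 counts per library and 31 in all, did not pass the filter and was not tested with the others. Its level was 0.466 and 0.178 CPM in the Hdac2 4OHT libraries and 0.259 and 0.382 CPM in the Hdac2 EtOH libraries, and 0.393 and 0.114 CPM in the Hdac1 4OHT libraries and 0.327 and 0.1 CPM in the Hdac1 EtOH libraries. A floor of 3 counts corresponds to 0.150 to 0.287 CPM. The summed counts of 8 under 4OHT and 8 under EtOH in the Hdac2 line gave a ratio of 1.07 with an exact Poisson 95% interval of 0.351 to 3.28, so a difference within these bounds was not detectable at this depth.

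Between the lines, Runx1 was called with EtOH and Gfi1b with 4OHT. With EtOH alone, Runx1 had 84.9 and 101 CPM in the Hdac2 line, against 185 and 256 CPM in the Hdac1 line (log2 fold change -1.24 ± 0.23 SE, adjusted p = 0.0273, edgeR quasi-likelihood test), a 2.37-fold lower level. It was the single member called of 5, where 9.33% of all tested genes were called, 2.91% higher and 6.42% lower. The call was lost without Hdac2 EtOH replicate 1 (adjusted p = 0.225), Hdac2 EtOH replicate 2 (0.1), Hdac1 EtOH replicate 2 (0.0714), Hdac2 4OHT replicate 1 (0.0619) or Hdac2 4OHT replicate 2 (0.0614), at log2 fold changes between -1.38 and -0.99. With a replicate block the adjusted p was 0.0568.

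Gfi1 was 12.3 and 11.4 CPM in the Hdac2 EtOH libraries, against 24.0 and 36.0 CPM in the Hdac1 EtOH libraries. The log2 fold change of -1.34 ± 0.34 (SE) had an adjusted p of 0.0501 by the edgeR quasi-likelihood test, which just misses the threshold of 0.05, and between 0.00396 and 0.0829 over the alternatives. Cbfb was also lower in the Hdac2 EtOH libraries (-0.44 ± 0.18 SE, adjusted p = 0.142), and Gfi1b overlapped between the lines (0.31 ± 0.36 SE, adjusted p = 0.581).

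With 4OHT the lines did not overlap in Gfi1b. Gfi1b had 7.06 and 6.49 CPM in the Hdac2 line, against 18.8 and 33.8 CPM in the Hdac1 line, and was 3.89-fold lower (log2 fold change -1.96 ± 0.39 SE, adjusted p = 0.0298, edgeR quasi-likelihood test). It was the single member called of 5, where 8.02% of all tested genes were called, 3.75% higher and 4.27% lower. The adjusted p was 0.0517 with limma-voom, 0.064 with a replicate block and up to 0.199 when 1 library was left out, with the call lost in 6 of 8 such fits: without either Hdac2 4OHT library (0.159 and 0.199), either Hdac2 EtOH library (0.0584 and 0.0587) or either Hdac1 4OHT library (0.0613 and 0.129), at log2 fold changes between -2.32 and -1.48. Runx1 (-0.82 ± 0.23, adjusted p = 0.0656), Gfi1 (-1.19 ± 0.34, adjusted p = 0.0734) and Runx2 (1.74 ± 0.46, adjusted p = 0.0572) did not pass the threshold.

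**Figure D4:**
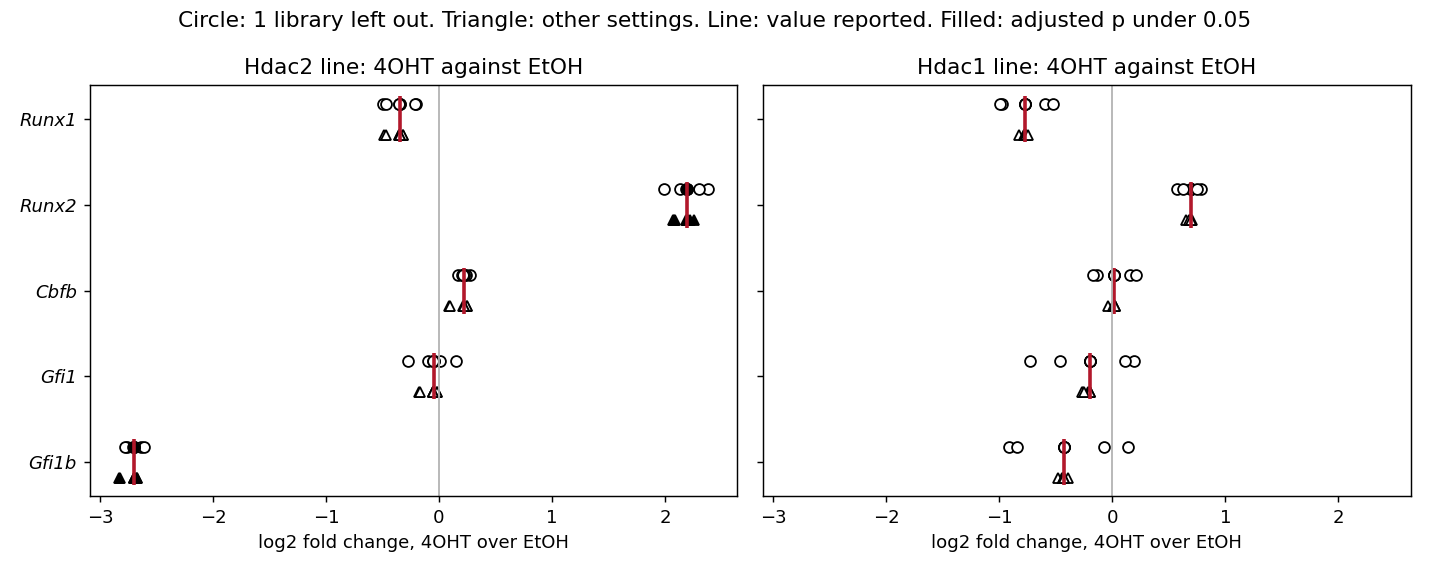
Log2 fold change, 4OHT over EtOH (horizontal axis), of the 5 tested members in the Hdac2 line (left) and the Hdac1 line (right), as reported (line), with 1 library left out (circles) and under other settings (triangles), filled where the adjusted p is under 0.05. Gfi1b in the Hdac2 line stays between -2.78 and -2.61 when a library is left out, while in the Hdac1 line it ranges between -0.92 and 0.13.

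The corepressors that GFI1 and GFI1B recruit moved in no common direction in the Hdac2 line. Of 14 such genes, 2 rose, 2 fell and 10 did not pass, where 18.9% of all tested genes rose and 17.2% fell. Their median log2 fold change was 0.15 against -0.02 for all genes. The 14 include the targeted genes Hdac1 (-0.68 ± 0.24) and Hdac2 (-0.08 ± 0.14), neither of them called. As given above, the counts of these 2 genes could not check the labels. Phf21a, a subunit of the LSD1 complex, rose by a log2 fold change of 1.06 ± 0.20 and Rcor3, a CoREST protein, by 1.15 ± 0.24. Rcor2, another CoREST protein, had -1.31 ± 0.31, and Hdac3 had -0.61 ± 0.20 (SE, adjusted p between 0.0117 and 0.0485, edgeR quasi-likelihood test). Hdac3 lost its call under 3 of 8 other settings. Kdm1a, which encodes LSD1 and is named here after its value was seen, had 0.14 ± 0.14, and it overlaps Luzp1 on the other strand. None (0) of the 14 was called in the Hdac1 line, and Gse1 had the smallest p (-0.71 ± 0.29, adjusted p = 0.733).

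Of the cofactors of RUNX proteins, 8 rose in the Hdac2 line under 4OHT, 0 fell and 7 did not pass, out of 15 tested of 16. Of all tested genes 18.9% rose and 17.2% fell. The median log2 fold change of the cofactors was 0.90, against -0.02 for all genes. All 15 estimates were above 0, with Tle2 not tested. Among them, Ep300 rose by 1.64 ± 0.29 and Crebbp by 1.98 ± 0.40, both histone acetyltransferases, and Kat6a, a further acetyltransferase that binds RUNX1, by 1.99 ± 0.40 (SE, adjusted p between 0.0108 and 0.0135, edgeR quasi-likelihood test). In the EtOH libraries 7 of the 15 were lower in the Hdac2 line than in the Hdac1 line and 0 higher, where 6.42% of all tested genes were lower. That comparison shares the Hdac2 EtOH libraries with the first. Between the 4OHT libraries of the lines 0 of the 15 were called, with a median of 0.10, where 8.02% of all tested genes were called. Of these 15, 0 were called in the Hdac1 line, with a median of -0.04, and Aes had the smallest p (0.37 ± 0.22, adjusted p = 0.798).

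**Figure D5:**
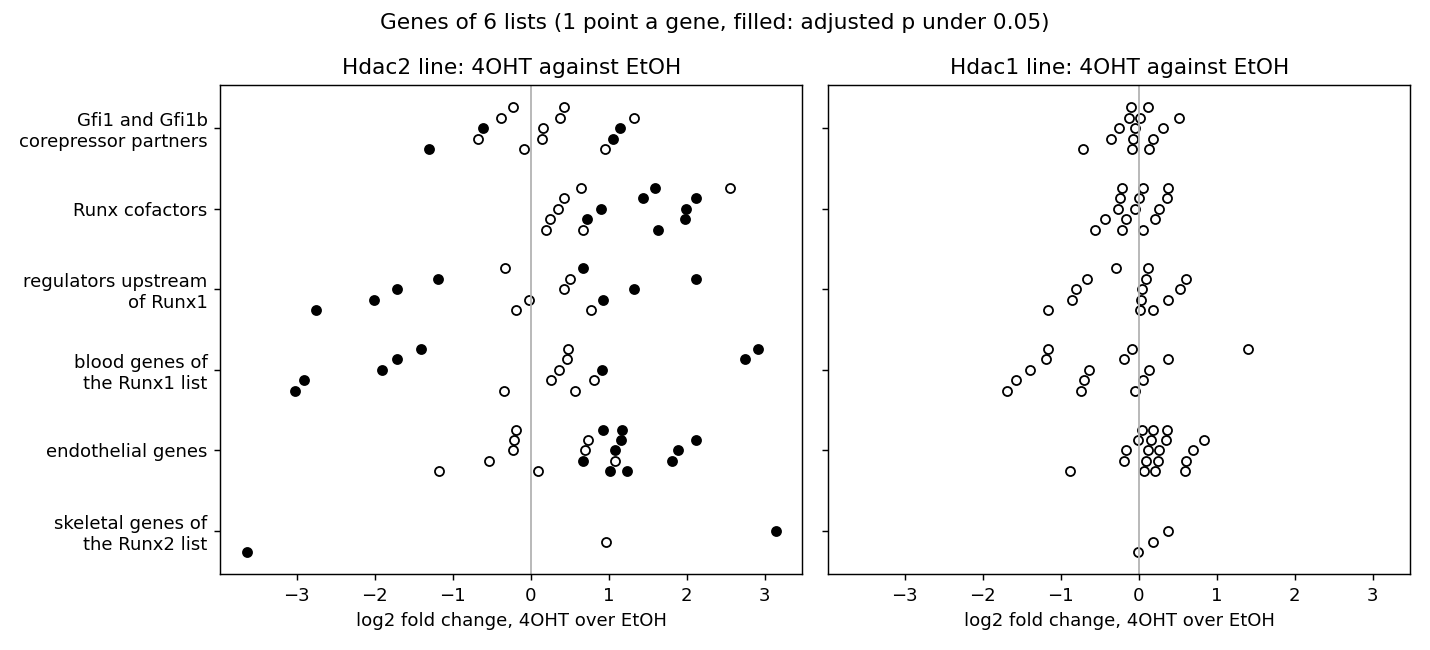
Log2 fold change, 4OHT over EtOH (horizontal axis), of each tested gene of 6 lists (rows) in the Hdac2 line (left) and the Hdac1 line (right), filled where the adjusted p is under 0.05. All 15 tested Runx cofactors lie above 0 in the Hdac2 line, the regulators upstream of Runx1 include 4 risen and 4 fallen genes, and no point is filled in the Hdac1 line.

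Genes listed as regulators upstream of Runx1 in haemogenic endothelium moved in both directions in the Hdac2 line. Of 14 genes, 4 rose, 4 fell and 6 did not pass, where 18.9% of all tested genes rose and 17.2% fell, and the list's median log2 fold change was 0.20. Those that fell were the blood factor Tal1 (-1.18 ± 0.18), its partner Lmo2 (-2.01 ± 0.33), the progenitor factor Myb (-1.71 ± 0.32) and Etv2 (-2.75 ± 0.56), a driver of early endothelium and blood (SE, adjusted p between 0.00868 and 0.0137, edgeR quasi-likelihood test). Myb is also in the list of blood genes that RUNX1 activates or binds, so its call counts in both lists. The 4 that rose, Notch1, Sox17, Erg and Sox7, are named beyond the naming rule, after their values were seen. Of these 14, 0 were called in the Hdac1 line, and Myb had the smallest p (-1.16 ± 0.30, unadjusted p = 0.00513, adjusted p = 0.712).

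Blood genes that RUNX1 activates or binds moved both ways in the Hdac2 line. Of 18 genes 15 were tested, 3 rose and 5 fell, where 18.9% of all tested genes rose and 17.2% fell. The median log2 fold change of these 15 was 0.37. Nfe2, a factor of megakaryocytes and red cells, fell by 3.02 ± 0.48 on the log2 scale, Itga2b, which encodes the early blood antigen CD41, by 1.91 ± 0.31 and Myb by 1.71 ± 0.32. Ptprc, which encodes the pan-leukocyte antigen CD45, rose by 2.74 ± 0.50 (SE, adjusted p between 0.00868 and 0.0116, edgeR quasi-likelihood test). Others called, named after their values were seen, include Nfkb1 and Csf1r, which rose, and Mpo, which fell. Csf1r overlaps Hmgxb3 on the other strand, which has 29.2 times its counts. Ptprc and Csf1r passed the filter on low counts only through the Hdac2 4OHT group, the group in which they were high. The median lay above 0 although more genes fell than rose. Macrophage markers, of which Csf1r is one, summed to 61.0 and 58.2 CPM in the Hdac2 4OHT libraries and 29.2 and 47.4 CPM in the Hdac2 EtOH libraries. Of 6 tested, 4 rose and 0 fell, and their part in the rise of Ptprc and Csf1r was not tested. Like Csf1r, the macrophage marker Cx3cr1 passed the filter only through the Hdac2 4OHT group. The Hdac1 line had 0 of 15 called, with a median of -0.64 against -0.02 for all genes.

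Of 19 genes listed as endothelial, 10 rose in the Hdac2 line under 4OHT, 0 fell and 9 did not pass, where 18.9% of all tested genes rose. Whether the RUNX1 and GFI1 circuit turns off each of them as blood forms was not tested. The median log2 fold change of the 19 was 0.93. Of the 19 estimates 14 were above 0, and the lowest was that of the tight junction gene Cldn5, named after its value was seen (-1.17 ± 0.80 SE, adjusted p = 0.268, edgeR quasi-likelihood test). Eng, which encodes the TGF-β co-receptor endoglin, rose by 1.88 ± 0.29, Cdh5 (VE-cadherin) by 1.81 ± 0.31, Mmrn2 (multimerin) by 1.17 ± 0.21 and Pecam1 (CD31) by 1.23 ± 0.24 (SE, adjusted p between 0.00868 and 0.0124, edgeR quasi-likelihood test). Eng overlaps Fpgs on the other strand, which has 0.13 times its counts. Sox17, Erg and Sox7 are shared with the list of upstream regulators. The Hdac1 line had 0 of 19 called, with a median of 0.18, and Mmrn2 had the smallest p (0.83 ± 0.21, adjusted p = 0.712). Between the EtOH libraries, 1 of the 19 was higher in the Hdac2 line and 0 lower (median -0.10), where 9.33% of all tested genes were called. Cdh5 averaged 765 CPM in Hdac2 EtOH cells, against 2684 in Hdac2 4OHT, 2068 in Hdac1 4OHT and 1723 in Hdac1 EtOH cells. Mmrn2 was as low in Hdac1 EtOH cells (108 CPM) as in Hdac2 EtOH cells (115 CPM). The haemogenic endothelium markers, several of which are in this list, summed to 6468 and 8488 CPM in the Hdac2 4OHT libraries, against 3380 and 3599 CPM in the Hdac2 EtOH libraries. These markers did not all move together. Cdh5, Pecam1, Kdr, Tek and Eng averaged higher under 4OHT in that line. Kit (mean 97.4 against 141 CPM) and Cd34 (mean 835 against 965 CPM) averaged lower.

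Skeletal genes, including targets of RUNX2 in bone, were mostly too low to test. Of 10 genes 3 passed the filter, and 1 rose and 1 fell in the Hdac2 line, where 18.9% of all tested genes rose and 17.2% fell. Spp1, which encodes osteopontin and is made by many cell types, rose by 3.15 ± 0.60, and Alpl, which encodes tissue-nonspecific alkaline phosphatase, fell by 3.64 ± 0.52 on the log2 scale (SE, adjusted p = 0.0122 and 0.00853, edgeR quasi-likelihood test). The call for Spp1 was lost without a filter on low counts (adjusted p = 0.0539). The Hdac1 line had 0 of 3 called, and Col1a1 had the smallest p (0.38 ± 0.92, adjusted p = 0.966). Its sign turned when 1 Hdac1 library was left out, with a range of -1.62 to 2.04.

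The number of calls in the 6 lists fell when libraries of the Hdac2 line were left out. Without EtOH replicate 2, or without 4OHT replicate 2, 0 members of these lists were called. Without EtOH replicate 1, 1 upstream regulator fell and 1 skeletal gene rose. Without 4OHT replicate 1, 7 endothelial genes, 4 Runx cofactors, 2 blood genes and 1 corepressor partner rose and 1 skeletal gene fell. Markers of cardiomyocytes, which can arise from the same cultures, summed to 33.1 and 37.7 CPM in the Hdac2 4OHT libraries and 12.4 and 9.26 CPM in the Hdac2 EtOH libraries. Of 5 tested, 3 were higher, where 18.9% of all tested genes rose, and Myl2 was at 0 in both EtOH libraries. Pluripotency markers summed to 1.01 and 1.69 CPM under 4OHT and 3.05 and 4.11 CPM under EtOH in that line, with Dppa5a at 0 in both 4OHT libraries. The parts of these cells in the list counts were not tested.

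The members did not share a profile over the 8 libraries. Profiles were compared as log2 CPM centred on each gene's own mean, by the root mean square (RMS) difference in log2 units. The nearest pair of members was Gfi1 and Runx1 (0.34), both low in the Hdac2 line, and the farthest was Gfi1b and Runx2 (1.95). Gfi1 and Gfi1b differed by 1.13. The genes named next are the 3 nearest of 9917 candidates for each member, which were chosen for likeness and are therefore given without a test.

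Nearest to Gfi1b were Pck2 (0.22), a mitochondrial enzyme of gluconeogenesis, Tspan32 (0.24), a tetraspanin of blood cells, and Car2 (0.24), a carbonic anhydrase abundant in red cells. Car2 averaged 46.7 ± 0.835 CPM in Hdac2 4OHT cells and 287 ± 35.2 CPM in Hdac2 EtOH cells, and 136 ± 17.9 CPM in Hdac1 4OHT cells and 201 ± 41.5 CPM in Hdac1 EtOH cells (SD, n = 2 each). Nearest to Gfi1 were Nap1l2 (0.19), a nucleosome assembly protein, Tspan12 (0.20) and Zfpm1 (0.24), which encodes the GATA1 cofactor FOG1. Zfpm1 averaged 171 ± 8.14 CPM in Hdac2 4OHT cells and 216 ± 9.50 CPM in Hdac2 EtOH cells, and 365 ± 58.6 CPM in Hdac1 4OHT cells and 417 ± 69.8 CPM in Hdac1 EtOH cells (SD, n = 2 each).

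Nearest to Runx1 were Tnik (0.13) and Wnk4 (0.14), both protein kinases, and Fn3krp (0.18). Tnik averaged 19.7 ± 2.06 CPM in Hdac2 4OHT cells and 26.2 ± 6.00 CPM in Hdac2 EtOH cells, and 42.9 ± 9.71 CPM in Hdac1 4OHT cells and 66.0 ± 12.5 CPM in Hdac1 EtOH cells (SD, n = 2 each). Nearest to Runx2 were Gpc4 (0.22), a glypican, Timp3 (0.22), an inhibitor of matrix proteases, and Kif5c (0.25), a kinesin. Timp3 averaged 907 ± 80.3 CPM in Hdac2 4OHT cells and 215 ± 17.8 CPM in Hdac2 EtOH cells, and 371 ± 3.84 CPM in Hdac1 4OHT cells and 229 ± 46.3 CPM in Hdac1 EtOH cells (SD, n = 2 each). Cbfb, which varied least, lay nearest to Ppp6r3 (0.04), Fam204a (0.06) and Senp2 (0.06).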

How the data were processed

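Per the labels' protocols, RNA was extracted with a Qiagen kit and 200 ng of total RNA went into an Agilent SureSelect strand-specific library with 15 amplification cycles. The authors deposited raw counts of reads for each gene, as whole numbers without normalization. Per the submitters' processing notes, mm10 is the genome build. The tools listed there are edgeR 3.8.5, R 3.1.0, Bowtie2 2.2.1, bcl2fastq 2.17.1.14 and SAMtools 0.1.19, with no role named. The sources used here do not give the counter, the annotation release, the strand setting or the treatment of multiply mapped reads. All 6 members have the same coordinates in GENCODE M21, and a BLAST search at 90% identity over 100 bases matched them to no other gene but Gm26626 (0 counts) and Runx2os1 (5 counts).

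Groups came from the sample titles. With edgeR 4.0.16 (R 4.3.3), filterByExpr (minimum count 10) left 14179 genes holding 99.9% of counts, TMM scaled the libraries, and a robust quasi-likelihood model took in the 8 libraries together, with 1 mean for each group. Benjamini-Hochberg adjustment at 0.05 ran over all tested genes within each of 5 comparisons. SEs are from the F statistic. Levels per kilobase use the GENCODE M21 exon union. Intervals of the log2 fold changes rest on the quasi-likelihood model, as the SEs do, and so include the spread between replicate libraries. The exact Poisson intervals and the floors of 3 counts cover counting error alone: without molecular identifiers, amplified reads need not be separate molecules. Nothing says that replicates were separate cultures, so the spread behind the p-values is that of these samples and could be technical. DESeq2 1.42.0 and limma 3.58.1 (voom) were alternatives, beside other scalings, no filter, a replicate block, a fit per line and leaving out each library. The code was tested on simulated counts.

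The members and lists were chosen with earlier results of these data known. The 6 gene lists were Gfi1 and Gfi1b corepressor partners, Runx cofactors, upstream regulators, blood genes of RUNX1, endothelial genes and skeletal genes, beside 7 marker lists. Named are the members in every comparison, Hdac1, Hdac2 and overlapping genes, per 4OHT comparison and list up to 4 called genes by smallest adjusted p (the smallest p where fewer than 2 are called), and the 3 genes with a mean of at least 5 CPM and no predicted or clone name whose profile is nearest to each tested member. Single values of some genes that the rule or the lists hold are not reported here. Promoter sequences are RefSeq's (GRCm38.p6).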

Additional observations from a re-analysis of the deposited data

How the results depend on the processing

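In the Hdac2 line, Gfi1b and Runx2 kept direction and call under the 8 alternatives that keep every library (Gfi1b -2.83 to -2.67, Runx2 2.07 to 2.26). With 1 library left out, Gfi1b ranged between -2.78 and -2.61, Runx2 between 1.99 and 2.38 and Gfi1 between -0.27 and 0.15. Upper quartile scaling and library size only moved the median of all genes in that line to -0.15 and -0.14. In the Hdac1 line, left-out libraries gave Cbfb -0.17 to 0.21, Gfi1 -0.73 to 0.19 and Gfi1b -0.92 to 0.13, and library size only gave Cbfb -0.0383. Col1a1 ranged there between -1.62 and 2.04. For the difference between the lines, Gfi1b was -2.27 without a filter (adjusted p = 0.0279) and -2.24 with DESeq2 (adjusted p = 0.00188), and left-out libraries gave Gfi1b -2.83 to -1.78, Cbfb -0.00227 to 0.39 and Gfi1 -0.24 to 0.68.

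Between the EtOH libraries, Runx1 was -1.24 with a replicate block (adjusted p = 0.0568) and Gfi1 was -1.26 with upper quartile scaling, -1.38 with library size only, -1.36 without a filter and -1.35 with DESeq2, each then called. Left-out libraries gave Runx1 -1.46 to -0.99, Cbfb -0.63 to -0.24, Gfi1 -1.61 to -1.03 and Gfi1b -0.11 to 0.87. Between the 4OHT libraries, Runx1 was -0.85 with upper quartile scaling, -0.93 with library size only, -0.83 without a filter and -0.80 with DESeq2, and Gfi1 was -1.29, -1.20 and -1.17 with the last 3 of these, each then called. Gfi1b was -1.91 with limma-voom and -1.96 with a replicate block, not called. Left-out libraries gave Runx1 -1.0 to -0.62, Gfi1 -1.58 to -0.66 and Gfi1b -2.32 to -1.48. The cause of these shifts was not tested.

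Genes called in the Hdac2 line, 2680 higher and 2433 lower, ranged with 1 library left out over 0 to 3315 higher and 0 to 3131 lower; a replicate block gave 1583 lower. In the Hdac1 line the count of 0 became 2 higher and 2 lower without a filter and 21 and 11 with DESeq2, and stayed 0 to 0 with a library left out. For the difference, 2 higher and 2 lower became 8 higher with library size only, 771 and 416 without a filter, 1228 and 553 with DESeq2, 1 and 0 with limma-voom, 0 and 0 with a replicate block, and 0 to 2069 higher and 0 to 1671 lower with a library left out. Between EtOH libraries, 412 higher became 727 without a filter, 1080 with DESeq2 and 38 with the block, 911 lower became 1721 with DESeq2 and 146 with the block, and left-out libraries gave 0 to 1611 higher and 1 to 2260 lower. Between 4OHT libraries, 532 higher and 605 lower became 817 and 988 without a filter, 1023 and 1000 with DESeq2 and 136 and 87 with the block, and left-out libraries gave 0 to 1068 higher and 0 to 1217 lower.

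Replicate numbers did not pair the samples: replicate 2 minus replicate 1 correlated at 0.222 between the Hdac2 groups and at -0.652 between the Hdac1 groups, and the block changed no call of a member beyond those given. A block with crossed numbers in the Hdac1 line, chosen after seeing the data, called 4411 higher and 4163 lower in the Hdac2 line, 637 and 221 in the Hdac1 line and 3064 and 2788 for the difference. Depth limits Runx2 and Runx3, at 3 to 21 and 2 to 6 counts per library.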
